A study of Mus musculus with 6 samples.

Results

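Respiratory complex I was examined through its nuclear subunit genes and the Ndufaf genes that encode its assembly factors. The samples were mouse cells labelled as hematopoietic stem cells (HSCs) and sorted by how much MHC class II they display. Members were the rows of the deposited table whose symbol starts with Ndufa, Ndufab, Ndufb, Ndufc, Ndufs, Ndufv or Ndufaf followed by a digit. This rule found 52 of 30803 rows: 37 genes of complex I subunits, 8 assembly factors, Ndufa4 and its paralogue Ndufa4l2, and 5 pseudogene or copy rows. The rule reads symbols alone, although it was set with earlier results of these data known.

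Complex I sits in the inner mitochondrial membrane, takes electrons from NADH, passes them along a chain of iron-sulfur clusters to ubiquinone and pumps protons as it does so. It is L-shaped: a matrix arm holds the NADH site, the clusters and the ubiquinone site, and a membrane arm holds the proton pumps. Its core subunits are encoded partly in the nucleus and partly in mitochondrial DNA, and a shell of supernumerary subunits surrounds them. Assembly factors help to build the complex and are not part of the finished enzyme. Long-term HSCs are known for a low reliance on oxidative phosphorylation, and their progeny raise it as they cycle and differentiate.

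The cells were labelled as HSCs and came from bone marrow of wild-type (WT) mice aged 5 months, kept under specific pathogen-free conditions and background-matched. They were sorted into an MHCII-lo and an MHCII-hi fraction, and 3 stranded poly(A) RNA-seq libraries of each fraction were deposited. All 6 libraries carry the prefix Ctrl in their titles, and no treatment is named. The labels used here name neither the gate of the sort nor whether the 3 libraries of a fraction came from separate mice or pools. The p-values below therefore rest on library-to-library spread alone, and that spread may be technical.

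The deposited values were read as FPKM (fragments scaled to transcript length and library size). Levels can be compared between genes only as far as the transcript lengths used are right. The read depth is unknown. Values summed to between 305934 and 306945 in the MHCII-lo libraries and between 333347 and 333530 in the MHCII-hi libraries. The stem cell label was checked on 10 marker genes: 3 of them, Slamf1, Procr and Mecom, had means under 1 FPKM in both fractions, and of the 7 tested 6 were higher in MHCII-hi while Kit did not pass. The 10 summed to 30.2 to 30.4 FPKM in MHCII-lo and 59.4 to 61.7 in MHCII-hi, far below the neutrophil sums given below. These markers therefore do not establish the label. Markers of other cell types were present in every library, and many differed between the fractions. The counts of markers stand beside 27.2% of all genes tested called higher in MHCII-hi and 40.5% called lower. All 8 B cell markers were higher in MHCII-hi, with a summed level of 23.7 to 26.3 FPKM in MHCII-lo and 179 to 184 in MHCII-hi. All 5 plasma cell markers were higher, with sums of 74.6 to 77.8 and 434 to 441 FPKM. Of 8 erythroid markers 7 were lower, with sums of 653 to 676 and 477 to 498 FPKM. Of 7 monocyte and macrophage markers 5 were lower and 2 higher, with sums of 780 to 803 and 536 to 541 FPKM. Of 9 neutrophil markers 5 were higher and 3 lower, with sums of 15774 to 15838 and 20805 to 21083 FPKM. Among 4 dendritic cell markers all 4 were higher, and among 6 T and NK cell markers 3 were higher and 3 lower. Of 4 megakaryocyte markers 1 was higher, 2 did not pass and 1 was not tested. No marker on these lists was at 0 in all 6 libraries. The part of these cell type differences in the results below was not tested, and in bulk RNA fewer cells of a type and less RNA per cell cannot be told apart.

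Nuclear complex I transcripts were lower in the MHCII-hi fraction almost throughout the complex. All 37 subunit genes passed the filter of a mean of 1 FPKM, 36 were lower in MHCII-hi, none was higher, and only Ndufv3 did not pass (limma on log2(FPKM + 1), adjusted p under 0.05). The same test called 40.5% of all 12295 genes tested as lower, so the share among subunits, 97.3%, was well above that background. Scaling the libraries by median of ratios gave 4090 genes higher and 4001 lower, against 3348 and 4982 in the values as deposited, and left 34 subunits lower. The median log2 change of the subunits was -0.68, beside -0.08 over all genes tested. In 36 subunits every MHCII-hi library lay below every MHCII-lo library, a pattern seen in 43.3% of all genes tested. A log2 change of -1 or less was seen in 8 subunits and in 1.48% of all genes tested.

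The summed FPKM of the 37 subunits was 1017, 1027 and 1041 in the MHCII-lo libraries and 581, 582 and 589 in the MHCII-hi libraries. The fractions did not overlap, and the sum in MHCII-hi was 0.568 times that in MHCII-lo (1028 ± 12.1 against 584 ± 4.58 FPKM, SD, n = 3). As a share of each library's total, the subunits went from between 0.332% and 0.339% to between 0.174% and 0.177%.

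**Figure D1:**
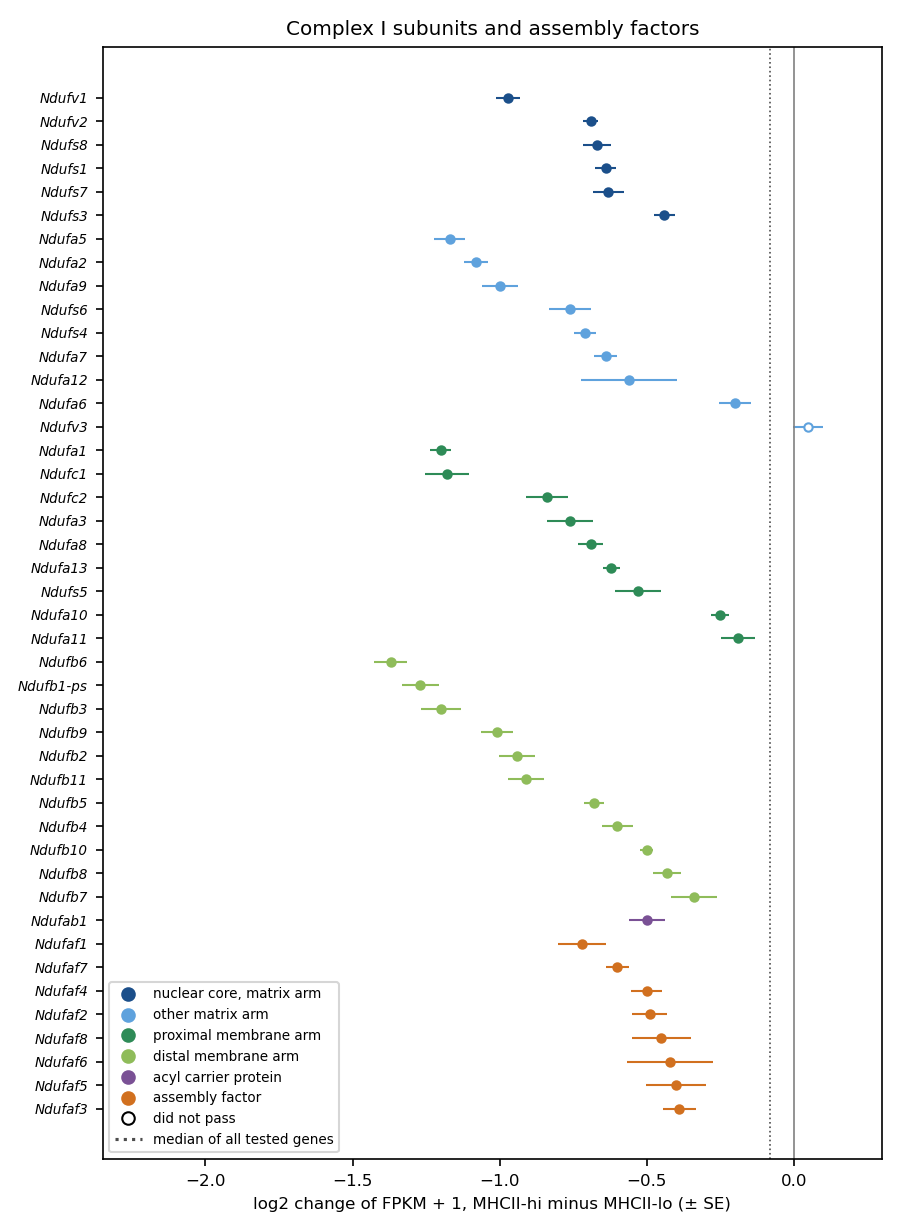
Log2 change of FPKM + 1 between MHCII-hi and MHCII-lo for 36 of the subunits and 8 assembly factors, on the horizontal axis, with SE as bars and genes grouped by their place in the complex. All genes shown but Ndufv3 (open point) are called lower, and the dotted line marks the median of all genes tested, -0.08.

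The 7 nuclear core subunits, which carry the NADH site, the iron-sulfur clusters and the ubiquinone site, were all lower, with log2 changes between -0.97 and -0.44. Ndufv1 (ENSMUSG00000037916.14; GRCm38 chromosome 19, 4007384 to 4012806, minus strand, protein-coding) binds FMN and NADH, where electrons enter the enzyme. It had 26.02, 26.43 and 28.06 FPKM in MHCII-lo and 13.84, 13.05 and 12.88 FPKM in MHCII-hi. The MHCII-hi libraries were all near 13 FPKM and far from the MHCII-lo range (log2 change -0.97 ± 0.041 SE, limma adjusted p = 2.34e-06). Its partner Ndufv2 had 38.42, 36.96 and 37.44 FPKM against 22.66, 23.38 and 22.70 FPKM, a ratio of 0.609 with no overlap. Ndufs8, an iron-sulfur subunit near the ubiquinone site, had 32.91, 32.38 and 36.26 FPKM in MHCII-lo and 20.64, 20.48 and 21.66 FPKM in MHCII-hi. Ndufs1, which carries several of the clusters, had 14.27, 14.10 and 13.52 FPKM against 8.77, 8.29 and 8.79 FPKM. Ndufs7, an iron-sulfur subunit at the ubiquinone site, stood at 0.625 times its MHCII-lo level, and Ndufs3 at 0.721 times. Of the core subunits described here, only Ndufv1 was below 0.5 times its MHCII-lo level.

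The 9 supernumerary subunits of the matrix arm varied more among themselves, from a log2 change of -1.17 to 0.05, and 8 were lower. Ndufa5 (GRCm38 chromosome 6, 24518666 to 24528013, minus strand), which binds beside the ubiquinone module, changed most in this class. It had 17.78, 15.59 and 17.68 FPKM in MHCII-lo and 6.91, 7.09 and 6.99 FPKM in MHCII-hi (log2 change -1.17 ± 0.053 SE, limma adjusted p = 3.15e-06). Ndufa2, a thioredoxin-fold subunit of the NADH module, had 52.62, 48.36 and 49.14 FPKM against 22.90, 22.41 and 24.15 FPKM. Ndufa9, which helps to join the matrix arm to the membrane arm, had 40.40, 42.52 and 37.25 FPKM against 18.81, 20.99 and 18.89 FPKM. The zinc-binding Ndufs6 had 23.34, 24.99 and 26.03 FPKM against 15.80, 13.89 and 13.07 FPKM. In these 4 genes, picked for the largest changes of the class, no MHCII-hi library reached the lowest MHCII-lo library. The same held for 43.3% of all genes tested. Ndufs4 and Ndufa7 stood at 0.581 and 0.619 times their MHCII-lo level.

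The smallest changes of the complex also lay partly in this class. Ndufv3, a small subunit beside Ndufv1 and Ndufv2, had 10.05, 9.76 and 10.12 FPKM in MHCII-lo and 10.53, 10.98 and 9.56 FPKM in MHCII-hi. The fractions overlapped and the difference did not pass (log2 change 0.05 ± 0.051 SE, limma adjusted p = 0.444), while its direct partner Ndufv1 changed by -0.97. With the dependence on transcript length and GC content taken out of each library, Ndufv3 was called higher at a log2 change of 0.14 (limma adjusted p = 0.0457). With the replicate block added to that correction it was not called (limma adjusted p = 0.0777). Ndufa6, which binds an acyl carrier protein, had 19.42, 19.64 and 18.75 FPKM against 17.28, 17.36 and 15.21 FPKM. Its call was small (log2 change -0.20, limma adjusted p = 0.0128), was lost under median-of-ratios scaling, and its log2 change turned to 0.11 with the length and GC trend removed.

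All 9 subunits of the proximal membrane arm were lower, with log2 changes between -1.20 and -0.19. Ndufa1 (GRCm38 chromosome X, 37187588 to 37191163, minus strand), a small membrane subunit encoded on the X chromosome, had 67.85, 64.17 and 70.23 FPKM in MHCII-lo and 28.87, 28.21 and 29.26 FPKM in MHCII-hi. Its log2 change was -1.20 ± 0.036 SE (limma adjusted p = 5.44e-07). Ndufc1, a single-pass membrane subunit, had 9.08, 9.90 and 9.74 FPKM against 3.71, 4.11 and 3.23 FPKM. Its neighbour in the complex, Ndufc2, had 36.76, 42.05 and 38.73 FPKM against 22.88, 22.14 and 19.45 FPKM. Ndufa3 had 22.09, 23.28 and 23.33 FPKM against 12.66, 11.84 and 14.98 FPKM. All 4, picked for the largest changes of the class, separated the fractions, as did 43.3% of all genes tested in this direction. Ndufa1 stood at 0.427 and Ndufc1 at 0.385 times their MHCII-lo level. Ndufa8 and Ndufs5, which face the intermembrane space and are held by disulfide bonds, stood at 0.61 and 0.68 times, and Ndufa13 (GRIM-19) at 0.634 times. Ndufa10 and Ndufa11 changed least, at 0.837 and 0.869 times. The call of Ndufa11 was lost in 7 of 17 alternative analyses, among them those without MHCII-hi replicate 1 (limma adjusted p = 0.0623) and without MHCII-hi replicate 2 (limma adjusted p = 0.0588). With the length and GC trend removed its log2 change was 0.01.

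The distal membrane arm had the lowest median log2 change among the structural classes, -0.91, beside -0.69 for the proximal membrane arm and -0.64 for the nuclear core. All 11 of its nuclear genes were lower. Ndufb6 (ENSMUSG00000071014.10; GRCm38 chromosome 4, 40270591 to 40279421, minus strand, protein-coding), a single-pass membrane subunit, had the largest change of any subunit. It had 33.58, 35.83 and 32.71 FPKM in MHCII-lo and 11.63, 12.76 and 13.37 FPKM in MHCII-hi (log2 change -1.37 ± 0.056 SE, limma adjusted p = 2e-06). Ndufb1-ps had 37.63, 36.16 and 35.85 FPKM against 15.00, 13.12 and 15.74 FPKM. Despite its name the locus is the mouse counterpart of the subunit gene Ndufb1, and the GENCODE annotation lists it as a bidirectional promoter lncRNA. Ndufb3 had 59.22, 63.42 and 57.63 FPKM against 23.73, 28.25 and 24.73 FPKM. Ndufb9, a further acyl carrier binding subunit, had 45.93, 50.98 and 52.02 FPKM against 23.23, 23.83 and 25.23 FPKM. These 4 genes were picked for the largest changes of the class. None overlapped between the fractions, a pattern seen in 43.3% of all genes tested, and their ratios lay between 0.37 and 0.485.

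Among the other distal subunits Ndufb2 stood at 0.375, Ndufb11 at 0.528, Ndufb5 at 0.592 and Ndufb4 at 0.625 times the MHCII-lo level. Ndufb11, also X-linked, was the most abundant subunit in both fractions, at 74.6 ± 1.43 and 39.4 ± 3.42 FPKM (SD, n = 3). Ndufb10, Ndufb8 and Ndufb7 changed less, at 0.702, 0.725 and 0.775 times, and the call of Ndufb7 was lost with the length and GC trend removed (log2 change -0.09, limma adjusted p = 0.308). Ndufab1, the mitochondrial acyl carrier protein that occurs in both arms and also serves fatty acid synthesis, had 4.19, 4.0 and 4.16 FPKM in MHCII-lo and 2.9, 2.43 and 2.54 FPKM in MHCII-hi. It was called lower at 0.637 times (limma adjusted p = 0.000362).

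Subunits that are built into the complex side by side had very unequal FPKM values. The highest subunit exceeded the lowest 23.0-fold in MHCII-lo and 32.4-fold in MHCII-hi. Ndufb2 was the lowest in both, at 3.24 ± 0.17 and 1.22 ± 0.0723 FPKM. FPKM is divided by transcript length, and Ndufb2 has the longest annotated transcript of the 37, 4371 bases beside a median of 971. The next lowest, Ndufab1, has 3479 bases. The part of transcript length in this span was not tested. The order of levels was much the same in both fractions, with a Spearman correlation of 0.94 across 37 genes, which are measured in the same libraries and are not independent replicates. The ratio of MHCII-hi to MHCII-lo correlated weakly with the MHCII-lo level (Spearman -0.3 across the same 37 genes). That level is also the denominator of the ratio, which by itself can push the correlation down. For the ratio it was -0.43 in 30 subunits at 11.2 FPKM or more in MHCII-lo and 0.54 in 7 subunits at 3.24 to 10.5 FPKM. With the log2 change in place of the ratio it was -0.44 over all 37. Library spread was small, with a median CV of 4.02% in MHCII-lo and 4.5% in MHCII-hi.

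**Figure D2:**
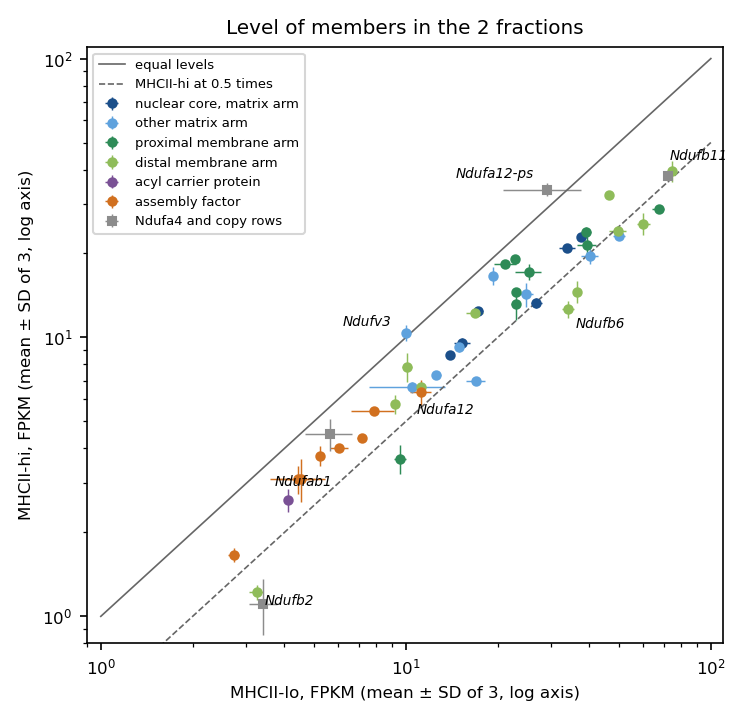
Mean FPKM of the members shown in MHCII-lo (horizontal) and MHCII-hi (vertical), both on log axes, with SD of 3 libraries as bars, the solid line marking equal levels and the dashed line an MHCII-hi level of 0.5 times. The subunits and assembly factors shown lie between or just below the lines except Ndufv3 at 1.04 times, and the grey square above the solid line is Ndufa12-ps.

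The assembly factors were lower as well, with smaller log2 changes at the median. All 8 Ndufaf genes were called lower (100%, beside the background of 40.5%), with a median log2 change of -0.47. All 8 also separated the fractions (43.3% of all genes tested did so in this direction). Ndufaf1 (ENSMUSG00000027305.9; GRCm38 chromosome 2, 119655446 to 119662827, minus strand, protein-coding), which helps to assemble the membrane arm, had 11.36, 10.22 and 11.92 FPKM in MHCII-lo and 6.94, 5.65 and 6.52 FPKM in MHCII-hi. It had the largest change of the 8 (log2 change -0.72 ± 0.081 SE, limma adjusted p = 0.000224). Ndufaf7, a methyltransferase that acts early in assembly, had 6.88, 7.32 and 7.28 FPKM against 4.30, 4.39 and 4.42 FPKM. Ndufaf4, which acts on the ubiquinone module, had 6.40, 5.62 and 6.16 FPKM against 4.08, 3.86 and 4.06 FPKM. Ndufaf2, a paralogue of Ndufa12 that occupies its place until late in assembly, had 2.83, 2.75 and 2.61 FPKM against 1.56, 1.75 and 1.67 FPKM. These 4 genes stood at 0.57 to 0.66 times their MHCII-lo level.

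Ndufaf3, the partner of Ndufaf4, stood at 0.719 times. Ndufaf5, which hydroxylates an arginine of Ndufs7, and its partner Ndufaf8 stood at 0.698 and 0.692 times, and both lost their call with the length and GC trend removed (limma adjusted p = 0.248 and 0.137). Ndufaf6 had 5.46, 4.49 and 3.60 FPKM against 3.31, 2.50 and 3.54 FPKM, so that the lowest MHCII-lo and the highest MHCII-hi library almost met. Its call (limma adjusted p = 0.04) was lost in 10 of the 17 alternatives, and the filter at a mean of 5 FPKM did not test it. Among the 10 were those without MHCII-lo replicate 1 (limma adjusted p = 0.11), MHCII-lo replicate 2 (0.0923), MHCII-hi replicate 1 (0.0624) or MHCII-hi replicate 2 (0.108).

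Subunits and assembly factors were compared through their ratios of mean FPKM. The 8 assembly factors lay between 0.57 and 0.719, with a median of 0.675, and none was below 0.5. The 37 subunits lay between 0.37 and 1.04, with a median of 0.61, and 11 were below 0.5. By number, 13 subunits lay below the lowest assembly factor, 17 within their range and 7 above the highest. Assembly factors were also less abundant, at 2.73 to 11.2 FPKM in MHCII-lo, and 7 subunits with levels in that range had a median ratio of 0.631. The median log2(FPKM + 1) of the subunits exceeded that of the assembly factors by 1.75, 1.90 and 1.87 in the MHCII-lo libraries and by 1.61, 1.59 and 1.67 in the MHCII-hi libraries. The gap was smaller in every MHCII-hi library, 1.62 ± 0.05 against 1.84 ± 0.08 (SD, n = 3). The added 1 FPKM raises low values most, and how much of the smaller gap came from it was not tested. Without it, the subunit medians were 22.3, 23.1 and 23.2 FPKM in MHCII-lo and 14.5, 13.1 and 14.4 in MHCII-hi. Those of the assembly factors were 5.93, 5.48 and 5.64 FPKM in MHCII-lo and 4.1, 3.71 and 3.84 in MHCII-hi. The comparison is a description of the chosen sets, and no test of the difference was made. At a pseudocount of 0.01 in place of 1, which weighs down low genes less, the medians of the log2 changes were -0.71 for subunits and -0.56 for assembly factors.

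**Figure D3:**
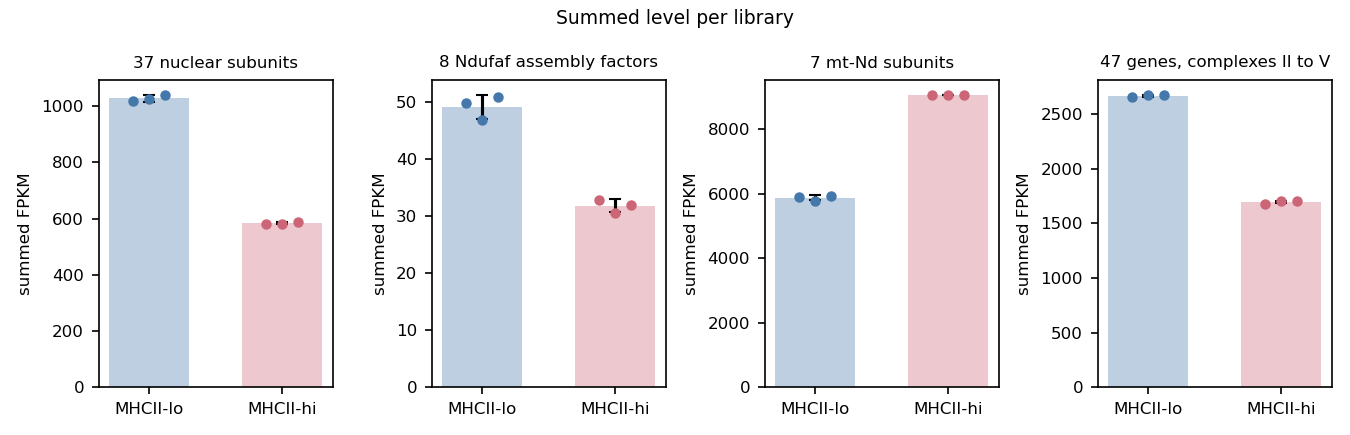
Summed FPKM per library (points), with the mean (bar, from 0) and SD of 3 libraries, for the 37 nuclear subunits, the 8 assembly factors, the 7 mitochondrially encoded subunits and 47 nuclear genes of complexes II to V. The nuclear sets are lower in every MHCII-hi library, and the mitochondrially encoded subunits are higher in every MHCII-hi library.

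Promoter windows are shown for 4 members with large or small changes and for 2 mid-range members that hold motif letters (Ndufa8 and Ndufaf8), because nuclear respiratory genes are known targets of the transcription factors NRF1, GABP (an ETS factor) and YY1. Windows run from 250 bases before to 30 bases after the RefSeq transcription start (GRCm38.p6), 5′ to 3′ on the gene's strand, and were found for 33 of 37 subunits and 7 of 8 assembly factors. Capitals mark matches, on either strand, to GCGCATGCG (NRF1), CCGGAAG (ETS) or AAGATGGCG (YY1). Ndufb6, with the largest change of the subunits, lies at chr4:40279392-40279671 (minus strand), and Ndufaf1, with the largest of the assembly factors, at chr2:119662805-119663084 (minus strand). Each holds 1 ETS match. Ndufv1, the most changed core subunit, at chr19:4012726-4013005 (minus strand), holds none. Ndufa11, with the smallest called change, at chr17:56717512-56717791 (plus strand), and Ndufa8, at chr2:36049309-36049588 (minus strand), hold the NRF1 letters, and Ndufaf8, at chr11:120098684-120098963 (plus strand), holds the ETS and the YY1 letters.
Ndufb6: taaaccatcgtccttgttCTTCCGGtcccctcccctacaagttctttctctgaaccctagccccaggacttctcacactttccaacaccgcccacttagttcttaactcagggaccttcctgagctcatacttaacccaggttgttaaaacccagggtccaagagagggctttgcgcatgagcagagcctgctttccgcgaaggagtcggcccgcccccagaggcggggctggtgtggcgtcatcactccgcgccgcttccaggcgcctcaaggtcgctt
Ndufaf1: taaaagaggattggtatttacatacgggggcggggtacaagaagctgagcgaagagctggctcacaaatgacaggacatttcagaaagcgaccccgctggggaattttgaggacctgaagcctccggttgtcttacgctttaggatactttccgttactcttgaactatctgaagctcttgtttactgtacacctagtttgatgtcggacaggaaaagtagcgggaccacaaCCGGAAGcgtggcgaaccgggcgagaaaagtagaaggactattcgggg
Ndufv1: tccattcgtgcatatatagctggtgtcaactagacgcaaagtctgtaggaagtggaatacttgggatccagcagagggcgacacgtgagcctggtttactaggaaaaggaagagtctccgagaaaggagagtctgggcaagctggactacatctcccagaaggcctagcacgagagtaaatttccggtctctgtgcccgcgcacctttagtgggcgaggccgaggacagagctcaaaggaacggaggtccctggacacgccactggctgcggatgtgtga
Ndufa11: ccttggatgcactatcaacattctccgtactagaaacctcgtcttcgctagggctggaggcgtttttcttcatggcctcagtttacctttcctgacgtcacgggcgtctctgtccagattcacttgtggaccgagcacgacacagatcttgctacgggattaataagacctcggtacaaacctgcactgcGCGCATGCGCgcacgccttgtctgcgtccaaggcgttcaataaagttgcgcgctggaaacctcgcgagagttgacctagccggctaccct
Ndufa8: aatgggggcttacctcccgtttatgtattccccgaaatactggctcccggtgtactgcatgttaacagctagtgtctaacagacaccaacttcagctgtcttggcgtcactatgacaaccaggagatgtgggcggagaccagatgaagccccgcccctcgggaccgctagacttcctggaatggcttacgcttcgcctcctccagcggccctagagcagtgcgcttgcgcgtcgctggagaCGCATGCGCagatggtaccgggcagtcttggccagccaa
Ndufaf8: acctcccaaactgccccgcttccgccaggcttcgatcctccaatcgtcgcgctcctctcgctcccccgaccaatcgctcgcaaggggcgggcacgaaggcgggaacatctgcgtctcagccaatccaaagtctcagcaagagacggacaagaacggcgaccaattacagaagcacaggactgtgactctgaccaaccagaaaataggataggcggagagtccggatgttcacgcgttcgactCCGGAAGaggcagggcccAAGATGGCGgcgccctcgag

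Over the 35 windows of the 33 subunits, 6 held at least 1 of these exact letters and 29 held none. ETS letters were in 4 windows (11.4%, beside 18% of 10752 windows of tested genes and 8.45% of all 32851 windows). NRF1 letters were in 2 windows (5.71%, beside 3.61% and 1.67%), those of Ndufa8 and Ndufa11. YY1 letters were in none (beside 2.45% and 1.05%). Of the 7 assembly factor windows, NRF1 and ETS letters were in 2 each and YY1 letters in 1. A match is a string of letters and not a measured binding site.

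Of 10 genes for regulators of nuclear respiratory genes 9 were tested, 4 were lower (44.4%, beside 40.5% of all genes tested) and none was higher, with a median log2 change of -0.08, equal to that of all genes tested. Tfam, the transcription and packaging factor of mitochondrial DNA, was lowest, with 10.63, 10.20 and 10.40 FPKM in MHCII-lo and 6.26, 5.91 and 5.88 FPKM in MHCII-hi (log2 change -0.70, limma adjusted p = 6.67e-06). Nrf1 had 5.17, 5.44 and 5.21 FPKM against 4.0, 4.01 and 4.29 FPKM (log2 change -0.30, limma adjusted p = 0.000909). The GABP subunit genes Gabpa (log2 change -0.08) and Gabpb1 (0.10) did not pass, with limma adjusted p-values of 0.198 and 0.204. Another GABP subunit gene, Gabpb2, was called lower (log2 change -0.25, limma adjusted p = 0.00057). Yy1 was called lower too (log2 change -0.15, limma adjusted p = 0.00427). Ppargc1a, a coactivator of these factors, was at 0.14 FPKM or less in every library and was not tested.

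The mitochondrially encoded core of the same complex moved the other way. All 7 mt-Nd genes were higher in MHCII-hi (27.2% of all genes tested were called higher), with log2 changes from 0.07 for mt-Nd3 to 0.74 for mt-Nd1. As a share of each library's total, the 7 together went from between 1.89% and 1.93% to 2.72%. The first, mt-Nd3, had 350.81, 340.70 and 352.54 FPKM in MHCII-lo and 358.58, 371.46 and 364.67 FPKM in MHCII-hi. Its ratio of 1.05 was below the 1.09 of the summed FPKM of all genes tested. By contrast mt-Nd1 had 1615.89, 1555.39 and 1629.40 FPKM against 2707.08, 2659.17 and 2673.90 FPKM. The median mt-Nd gene exceeded the median nuclear subunit 34.3-, 32.9- and 33.1-fold in the MHCII-lo libraries and 85.6-, 93.3- and 85.4-fold in the MHCII-hi libraries. How well poly(A) selection captured mitochondrial RNA in each library was not tested.

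Assembly genes with other symbols were listed as well, and 10 of the 11 found in the table were tested. Of these 7 were lower (40.5% of all genes tested were), 2 higher (27.2% of all genes tested were) and 1 did not pass, with a median log2 change of -0.38. Dmac1, a factor for the distal membrane arm, had 26.92, 34.67 and 29.55 FPKM against 17.20, 16.43 and 16.39 FPKM. Tmem70, needed for complex I and ATP synthase, had 15.80, 15.56 and 15.22 FPKM against 9.23, 8.26 and 8.0 FPKM. The 2 that were higher were Ecsit, with 4.96, 5.50 and 5.06 FPKM against 6.15, 5.92 and 5.64 FPKM, and Dmac2, with 8.26, 7.27 and 7.29 FPKM against 8.43, 9.50 and 9.01 FPKM. Ecsit acts in the same assembly complex as Ndufaf1 and Acad9, which were both lower (log2 changes -0.72 and -0.48). Nubpl, which inserts iron-sulfur clusters into complex I, had 1.09, 1.02 and 1.21 FPKM against 0.35, 0.39 and 0.39 FPKM and lay below the filter.

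The changes of the complex I subunits were close to those of the other nuclear respiratory genes. For 43 tested genes of complexes II to V the median log2 change was -0.68, the same as for the subunits, and 42 were lower. For 80 mitochondrial ribosomal protein genes it was -0.43, and 66 were lower, which is nearer to the assembly factors. Of all genes tested, 40.5% were lower. With the length and GC trend removed, 39 of the 43 genes were lower at a median of -0.5, and 45 of the 80 at a median of -0.21. In that setting 32.5% of all genes tested were lower. These sets are given as counts and medians without a test of their difference. Ndufa4, which carries a complex I name but is now counted with cytochrome c oxidase (complex IV), had 72.23, 72.95 and 72.05 FPKM in MHCII-lo and 36.12, 37.57 and 39.77 FPKM in MHCII-hi (log2 change -0.92, limma adjusted p = 1.48e-06). Its paralogue Ndufa4l2, known as a hypoxia-induced gene, was listed at 0 in 5 libraries and at 0.04 FPKM in MHCII-lo replicate 3.

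Over all genes tested the change varied with transcript length, and among the members it did so only weakly. The Spearman correlation of length with log2 change was 0.23 across the 37 subunits and -0.26 across the 8 assembly factors. The subunit transcripts were short, with a median of 971 bases, and short transcripts were lower in MHCII-hi in general. Among tested genes with transcripts of 400 to 800 bases the median log2 change was -0.26 (852 genes, 48.1% called lower), and the 13 subunits in that range had -0.76, all 13 lower. From 800 to 1600 bases the medians were -0.22 for 1822 genes, 52.0% of them lower, and -0.67 for 15 subunits, 14 of them lower. Above 1600 bases they were -0.05 for 8617 genes, 38.9% of them lower, and -0.64 for 9 subunits, all 9 lower. With that dependence, and the one on GC content, taken out of each library, 32 subunits and 5 assembly factors were still called lower, with medians of -0.47 and -0.26, beside a median of -0.01 over all genes tested, 32.5% of which were called lower.

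Of the 5 pseudogene or copy rows 3 were tested. A processed pseudogene can share reads with its parent gene, and the sources used here do not say how the authors divided such reads, so these genes are uncertain. Ndufa12-ps, a pseudogene at chromosome 5, 130188393 to 130188888, had 34.53, 33.16 and 19.52 FPKM in MHCII-lo and 33.37, 32.42 and 35.95 FPKM in MHCII-hi. It overlapped between the fractions and did not pass (limma adjusted p = 0.295). Its parent Ndufa12, a matrix arm subunit, had 8.42, 9.22 and 13.88 FPKM against 6.3, 6.74 and 6.85 FPKM and was called lower (log2 change -0.56 ± 0.162 SE, limma adjusted p = 0.0189). In MHCII-lo replicate 3 the gene was highest and the pseudogene lowest of the 6 libraries. Without that library the log2 change of Ndufa12 was -0.36 (limma adjusted p = 0.00293), and without MHCII-hi replicate 1 the call was lost (limma adjusted p = 0.0544). The 2 rows together gave 43.0, 42.4 and 33.4 FPKM against 39.7, 39.2 and 42.8 FPKM, so the sum overlapped between the fractions.

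The other copies did not turn the direction of their parents. Ndufab1-ps had 3.0, 3.64 and 3.60 FPKM against 1.19, 1.31 and 0.82 FPKM (limma adjusted p = 0.000151), and together with Ndufab1 the sum went from 7.53 ± 0.3 to 3.73 ± 0.365 FPKM (SD, n = 3). Ndufb4c had 5.25, 6.78 and 4.92 FPKM against 4.89, 3.83 and 4.84 FPKM. It did not pass (limma adjusted p = 0.0979), although the fractions did not overlap, and with Ndufb4 the sum went from 14.9 ± 0.919 to 10.3 ± 0.223 FPKM. Ndufs5-ps and Ndufs6b were below the filter, and the sums with Ndufs5 and Ndufs6 went from 26.2 ± 2.54 to 17.9 ± 1.01 and from 25.5 ± 1.24 to 15.1 ± 1.1 FPKM. FPKM is divided by each row's own length, so a sum of gene and copy also depends on how reads were divided between them. These sums, like those of Ndufa12 with Ndufa12-ps, are not exact levels and need not keep the order of the libraries. Sums weighted by length were not made.

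**Figure D4:**
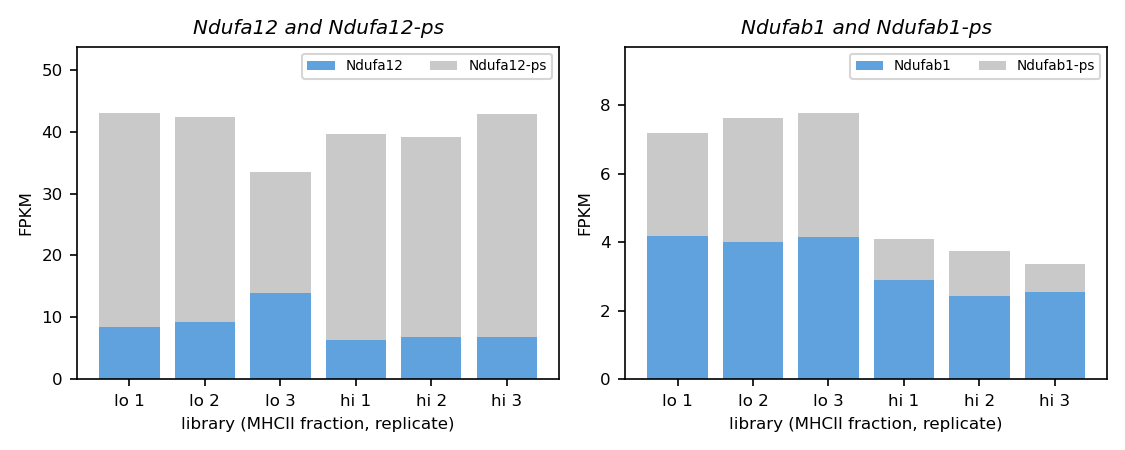
FPKM per library of Ndufa12 with Ndufa12-ps (left) and Ndufab1 with Ndufab1-ps (right), stacked from 0, for MHCII-lo replicates 1 to 3 and MHCII-hi replicates 1 to 3. The Ndufa12 sums overlap between the fractions, at 33.4 to 43.0 and 39.2 to 42.8 FPKM, and the Ndufab1 sums do not.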

How the data were processed

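RNA was measured in 6 poly(A) libraries, 3 per fraction. Per the submitters' processing notes, fastp, HISAT2 and StringTie were used with the builds GRCm38 and mm10. The sources used here give no versions or settings. The deposited values, 1 per row and library, were taken as FPKM from their decimals and unequal sums, since the file headers name only the library. Because FPKM is scaled to library size, abundant transcripts that rise pull other values down. For each of 67 repeated symbols the row of highest mean was used under that symbol. The 70 extra rows were kept as separate rows and were fitted where they passed the filter. Libraries were grouped by the titles in the labels.

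All genes averaging 1 FPKM or more were fitted together as log2(FPKM + 1) in limma 3.58.1 under R 4.3.3 (moderated by empirical Bayes, trend on the mean, two-sided p adjusted by Benjamini-Hochberg over 12295 genes, threshold 0.05). Fold changes on this scale understate the change of low genes. The fit was tested on simulated data. Positions, transcript length (the longest in the basic set) and GC content came from GENCODE M21 of GRCm38, which matched 96.6% of the symbols, and promoter windows and 2 pseudogene positions from RefSeq. Python 3.11.15, pandas 2.3.3 and matplotlib 3.10.9 served for tables and figures.

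A further member is counted in the sets and is not reported here by itself. The members and lists were chosen with earlier results of these data known. Values in every library are given, per structural class, for up to 4 members with the largest called change, for members that did not pass, and for Ndufa4, Ndufa4l2 and Ndufab1. Ndufa6, Ndufa12, Ndufaf6, Ndufb11, Acad9, Nubpl and the promoters shown were chosen after their values were seen, as were the comparisons by level range, by length class and of gene with copy. Alternatives were other pseudocounts, filters and scalings, no trend, array weights, the replicate block, a length and GC correction and leaving out each library.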

Additional observations from a re-analysis of the deposited data

How the results depend on the processing

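Of the 44 subunits and assembly factors called lower, 37 (32 subunits and 5 assembly factors) were lower in every one of the 17 alternatives that tested them, and 7 lost their call in at least 1: Ndufa6, Ndufa11, Ndufa12, Ndufb7, Ndufaf5, Ndufaf6 and Ndufaf8. Removing the length and GC trend, alone or with the replicate block, gave medians of -0.47 for subunits and -0.26 for assembly factors and 5 assembly factors lower, and turned the log2 changes of Ndufa11 to 0.01 and Ndufa6 to 0.11. The cause was not tested. Median-of-ratios scaling gave medians of -0.59 and -0.39. The assembly factor median was -0.55 at a pseudocount of 0.1 and -0.56 at 0.01. With a mean of at least 5 FPKM, which tested fewer assembly factors, it was -0.55, with 4 lower. Leaving out each library gave 34 to 36 subunits lower with medians of -0.69 to -0.66, 7 to 8 assembly factors lower with medians of -0.51 to -0.46, and 4501 to 4807 genes lower in all. Deviations from the group means correlated at 0.063, 0.002 and 0.08 in same-numbered pairs of libraries, and at -0.095 to 0.025 in the other pairs. These values are too small to show that the replicate numbers pair the libraries, and they cannot exclude a weak pairing. With the replicate number as a block, 36 subunits and 8 assembly factors were lower, with medians of -0.68 and -0.47, and 4809 genes in all. Depth is unknown, so no counting error could be given.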
